A study of Sus scrofa with 21 samples.

Results

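Blood RNA of 10 DD pigs was compared from animal to animal within the inbred line. DD stands for SLAdd, a minipig line bred to carry 1 haplotype of the swine leucocyte antigen (SLA) genes on both chromosomes and kept inbred as a herd. The 10 pigs are all the DD arrays among the 21 arrays of the series, chosen by the breed label, and the other 11 are from Large White (LW) pigs, the control breed. All pigs were bled at 60 days of age, had free access to a standard diet, and gave total RNA from whole blood for 1 one-colour array each. The DD pigs were born to 5 sows, 2 pigs per sow, and pigs of the same sow were always on different chips. Chip 1 held DD_01, DD_06 and DD_08, chip 2 held DD_10, DD_11, DD_13 and DD_16, and chip 3 held DD_19, DD_21 and DD_23. Pigs of one sow were DD_01 and DD_10, DD_06 and DD_11, DD_13 and DD_23, DD_16 and DD_19, and DD_08 and DD_21.

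Whole blood holds red cells, platelets, neutrophils, monocytes and lymphocytes, and the RNA extracted from it is the sum of all of them. Immature red cells bring transcripts of globin and haem synthesis, platelets bring transcripts inherited from megakaryocytes, and white cells bring most of the immune genes. Interferons released in response to a virus switch on a set of antiviral genes in many of these cells at once, so that such genes are known to move as a block. In a bulk sample, fewer cells of a type and less RNA per cell cannot be told apart, which holds for each gene group described here.

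Levels were the log2 values deposited by the authors, background corrected and quantile normalized over all arrays. Probes of a gene were averaged after dim probes were removed, which left 18973 probes of 9073 named genes. The mean of each chip over its DD pigs was then taken away from every gene, and the spread of a gene is the SD of what remained, with 7 residual degrees of freedom. A chip-corrected level is that remainder plus the mean of the gene over the 10 pigs. Because the deviations of the pigs on 1 chip sum to 0, a pig far from its chip mean pushes the others of that chip the opposite way. Each pig has 1 array, so SDs hold differences between animals and between arrays together, and the number of arrays limits their precision.

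The arrays were not alike. Array brightness (the 75th percentile of an array's processed signal, as log2) ran from 6.56 in DD_21 to 8.49 in DD_06, and 44.7% to 61.0% of the probes were well above background. The array of DD_16 stood apart. Of the 18973 probes, 631 (3.33%) lay more than 1.5 below their chip mean in DD_16, against 0 to 24 on each of the other DD arrays. Those 631 probes more often had a reading frame free of stop codons across the whole probe (96.5%, against 81.9% of the other probes), and their median GC content was 45.0% against 41.7%. A difference along the transcript was measured too. For 1514 transcripts with probes at least 300 bases apart, the upstream minus the downstream probe, centred within chips, had a median of −0.25 in DD_16 and −0.26 in DD_13, 0.30 in DD_10 and 0.20 in DD_11, and lay between −0.05 and 0.10 on the other arrays. It was below 0 for 68.4% of the transcripts in DD_16 and for 73.2% in DD_13. The part of RNA quality or labelling in these differences was not tested. Values without DD_16 are given beside the genes and groups that it moved most.

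Probes are 60-base oligonucleotides, and the first 30 bases of the brightest probe of 5 genes are shown, since the results turn on these genes. CXCL10 stands for the group highest in DD_06, KLRK1 for the group lowest in DD_10, PR39 for genes high in the pigs DD_13 and DD_23, and RPL3 and VSIR for genes lowest in DD_16. No base is set in capitals, because no motif is compared.
CXCL10: ctgagtgggtgctcttcaaaataaaactaa
KLRK1: ataacaatggttgaaatgcagaatggaagc
PR39: acatacccattaaaagcttttggtgaatcc
RPL3: ttggagagggacttcagtagcatgaagaag
VSIR: gatgccaaatgacctacatcccagaagcct
The GC content over all 60 bases was 35% for CXCL10, 38.3% for KLRK1 and 41.7% for PR39. Genes lowest in DD_16 had 53.3% (RPL3), 55% (VSIR), 43.3% (LAPTM5) and 45% (TREM1). Across all 18973 probes, GC content and the chip-centred deviation correlated at r = 0.41 in DD_10 and r = −0.31 in DD_16, which is over probes and not over animals.

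The brightest genes held both blood transcripts and names that are not known from blood. HBB, the beta chain of haemoglobin, had a mean level of 17.61 ± 0.42 (SD within chips, n = 10) and AHSP, the chaperone of alpha globin, 17.46 ± 0.67. TMSB10, an actin-binding thymosin, stood at 17.43 ± 0.34. Above or among them were FAM124A at 18.63, the mucin gene MUC13 at 18.62, CHGA, which encodes chromogranin A of neuroendocrine granules, at 18.60, NRTN, a neurotrophic factor, at 18.33, AVP, the vasopressin precursor, at 17.81, TP23 at 17.79, the lens-related GRIFIN at 17.70 and the pluripotency gene UTF1 at 17.68. IFNAR2, a chain of the type I interferon receptor, HNRNPD, an RNA-binding protein gene, and HABP2, which encodes a plasma protease, followed at 17.39, 17.38 and 17.38. Each of these 11 was read by 1 probe. Brightness also depends on how strongly a probe binds, so that this order is one of probes and not of RNA amounts. The SD was 0.06 for AVP and 0.07 for FAM124A, CHGA and TP23, whereas AHSP ran from 16.10 in DD_19 to 18.18 in DD_21 and had an SD larger than 91.6% of all genes. Quantile normalization gives probes of equal rank the same value. FAM124A had the same deposited level, 18.51, in DD_01, DD_06 and DD_08. How far this lowered the SDs of the brightest probes was not tested. Some of the bright probes moved with measures of the array: HBB followed the difference along the transcript at r = 0.98, MUC13 followed brightness at r = 0.91 and UTF1 at r = −0.87.

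Most genes differed little between the DD pigs. The median SD over the 9073 genes was 0.33 on the log2 scale, 78.8% of the genes had an SD below 0.5, and 113 genes (1.25%) had an SD above 1. Without DD_16 the median was 0.31 and 65 genes had an SD above 1, 54 of them among the 113. Spots with identical sequence on the same array measured how far the array itself scatters. Over 1120 such pairs, the median SD between the spots was 0.08, while the median SD of these probes among pigs was 0.38, and the paired spots followed each other over the 10 pigs with a median r of 0.96. Animal and array remain together in the SD among pigs.

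**Figure D1:**
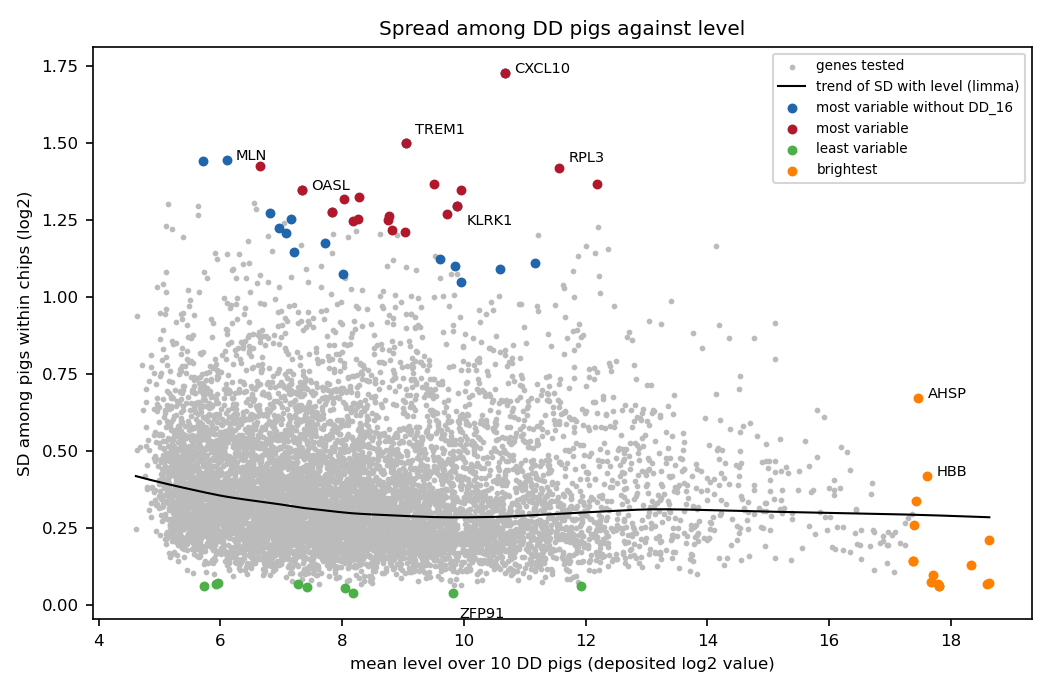
SD among the 10 DD pigs within chips (vertical axis, log2) against mean deposited log2 level (horizontal axis) of the genes, with the fitted trend as a line. Red points are genes with the largest SD relative to the trend, blue points those added when DD_16 was left out, green points the 10 with the smallest SD relative to the trend and orange points the brightest genes; CXCL10 (SD 1.73), TREM1 (SD 1.50) and RPL3 (SD 1.42) are labelled, and the trend stays near 0.3 at most levels.

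No gene passed a test of its spread against genes of like level. limma's fitted prior for the variance had 4.12 degrees of freedom, which means that genes of equal brightness already differ widely in their SD. Against that prior, 0 of 9073 genes (0%) varied above the trend and 0 (0%) below it at a Benjamini-Hochberg adjusted p of 0.05, with smallest adjusted p of 0.92 and 0.12. Without adjustment, 446 genes (4.92%) lay above and 470 (5.18%) below at a p of 0.05, about the 5% that such a threshold passes on its own. With 1 probe per gene, 0 and 0 genes were called too. Among genes this unequal in their SD the test had no power to call a gene with a raised SD, so the absence of calls says nothing about whether single genes varied more than others. The probes of a gene gave a further measure. For 2124 of the 4357 genes with at least 2 probes (48.7%), the arrays of the pigs differed beyond the disagreement of the probes (F test of the pig mean square over the probe-by-pig mean square, Benjamini-Hochberg adjusted p below 0.05). With 1 array per pig, a difference between arrays counts here as 1 between pigs. Some probes of a gene also share sequence, which lowers their disagreement. The median r between probes of 1 gene over the 10 pigs was 0.52. The most variable genes are therefore given in order of SD over the fitted prior SD, as a ranking and not as calls. In the gene lists that follow, a gene above or below the trend had an unadjusted p below 0.05, and none was called. Such list counts stand beside 4.92% above and 5.18% below over all genes.

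A pair of components held most of the shared variation. The first principal component carried 39.9% of the chip-centred variance and set DD_16 (score −48.24) against DD_10 (29.36) and DD_11 (29.92), all on chip 2. Over the 10 pigs it followed the difference between upstream and downstream probes at r = 0.86. Dropping DD_16 from that correlation alone gave r = 0.84, with the component and the chip means still computed with DD_16. The second component carried 25.7% and ran from DD_10 (−24.71), DD_01 (−23.29) and DD_21 (−21.42) to DD_06 (25.75). It followed the brightness of the array at r = 0.88. Of all genes, 25.7% had an r beyond 0.7 in either direction with the difference along the transcript, and 20.2% with brightness. These correlations are descriptions over 10 pigs of 5 sows, with both measures taken from the same arrays as the components.

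**Figure D2:**
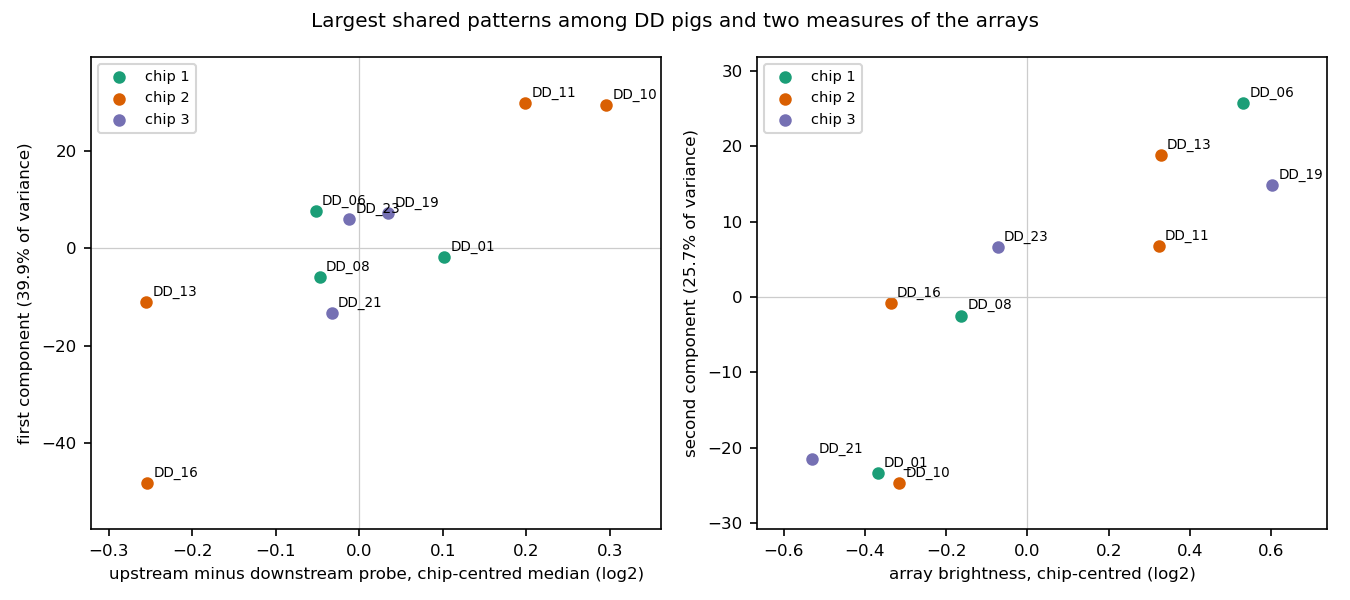
Scores of the 10 DD pigs on the first principal component (left, 39.9% of variance) against the median difference between upstream and downstream probes of a transcript, and on the second component (right, 25.7%) against array brightness, both in log2 and chip-centred. Colours mark the chips; DD_16 lies lowest and DD_10 and DD_11 highest on the first component, and DD_06 lies highest on the second.

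The pig DD_16 decided much of the ranking. Among the 20 genes with the largest SD relative to the trend, DD_16 was the lowest pig for 15, and DD_10 or DD_11 the highest for 15. Over all 9073 genes, DD_16 was the lowest pig for 1761 (19.4%), DD_10 the highest for 1126 and DD_11 for 1209. DD_10, DD_11 and DD_16 share a chip, where a low pig raises the others by the chip mean. Before chip correction, IFI35 was highest in DD_06 (9.51), with 8.95 in DD_10 and 8.80 in DD_11. LRG1 was still highest in DD_10 (8.43, against 8.06 in DD_06). Such uncorrected levels also hold differences between chips. How far the chip mean made DD_10 and DD_11 the highest pigs was not tested. RPL3, a protein of the large ribosomal subunit, had levels of 11.11 to 13.25 in the other 9 pigs and 8.57 in DD_16, and its SD was 1.42 with and 0.59 without that pig. VSIR, an inhibitory receptor of the B7 family, had 6.87 in DD_16 against 8.77 to 11.19, with an SD of 1.37 and 0.80. LAPTM5, a lysosomal membrane protein of blood cells, had 9.69 in DD_16 against 11.37 to 14.03 (SD 1.37 and 0.89). IFI35, an interferon-induced protein, had 5.27 against 7.59 to 9.49 (SD 1.32 and 0.59). The other genes of this kind were the peptidase CNDP2, the apoptosis-linked DAP, the proton pump subunit ATP6V0D1, the sugar kinase NAGK, the mitochondrial STOML2, the replication factor subunit RFC2, the NADPH oxidase subunit NCF4, the class I gene SLA-6 and the unnamed LOC100515345. Without DD_16 the SD was 0.81 in place of 1.25 for STOML2, 0.68 in place of 1.25 for RFC2, 0.59 in place of 1.21 for NCF4 and 0.79 in place of 1.25 for LOC100515345. LRG1, a neutrophil granule glycoprotein, and TREM1, an activating receptor of neutrophils and monocytes, were also lowest in DD_16 (4.61 and 6.71) and kept an SD of 1.20 and 1.18 without it. TREM1 was highest in DD_10 at 11.10, and its level followed the difference along the transcript at r = 0.90.

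Genes in this pattern followed each other closely. RPL3 had its highest correlations with ACADVL, which encodes an enzyme of fatty acid oxidation (r = 1.00), EIF3CL, the glycolytic gene ENO1, GNAI2 and C12ORF10 (r = 0.99 to 1.00), and its lowest with CEP78 (−0.98) and the cytochrome oxidase subunit COX6A1 (−0.98). Without DD_16 the positive correlations were 0.96 to 1.00 and the negative ones −0.90 and −0.89. VSIR went with HEXA, a lysosomal hexosaminidase, CERS4, C7H6orf89, the B cell tetraspanin CD37 and C11ORF2 at r = 0.99 to 1.00 (0.98 to 1.00 without DD_16), and against CCDC41 and TEX9. TREM1 went with B4GALT5, IL10RB, FAM129A, LRG1 and MEPCE (r = 0.99 to 1.00, or 0.97 to 0.99 without DD_16), and against ENPP7 and URB2. When the difference along the transcript was added to the model as a covariate, the SD of TREM1 was 0.71 in place of 1.50 and that of LAPTM5 0.63 in place of 1.37. That of CXCL10 was 1.83 in place of 1.73, and that of KLRK1 1.32 in place of 1.30.

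Interferon-stimulated genes were high together in DD_06. Of 51 genes on the list, 39 were tested. None was called, 22 (56.4%) had an unadjusted p below 0.05 above the trend against 4.92% of all genes, and 38 had an SD above the median of all genes. Their median SD was 0.80 against 0.33 over all genes, and 0.82 without DD_16. Without DD_06 it was 0.38. Any 2 of them correlated with a median r of 0.77, or 0.40 without DD_06, where the median over all gene pairs was −0.01. The mean deviation of the list ran from −0.79 in DD_01 to 1.30 in DD_06. All 39 genes lay above the chip mean in DD_06 and all 39 below it in DD_01, both on chip 1, where a high pig lowers the others by the chip mean. DD_06 was the highest pig for 34 of them, and for 943 of all 9073 genes. DD_11, of the same sow as DD_06, had 0.43 on chip 2, with 35 of 39 genes above the chip mean. DD_23, of another sow, had 0.20 on chip 3, with 36 of 39 genes above it.

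CXCL10, a chemokine that draws activated T cells, had the largest SD relative to the trend of all genes. Its level was 13.65 in DD_06, 12.02 in DD_16, 11.80 in DD_21, 11.46 in DD_11 and 10.85 in DD_23, and 9.19 to 9.74 in the other 5 pigs. The range came to 22.0-fold. Its SD was 1.73, or 1.13 without DD_06, and its 3 probes, 2 of which share sequence, correlated at r = 0.98. OASL, an oligoadenylate synthetase-like antiviral gene, ran from 5.82 in DD_08 to 9.85 in DD_06 with a median of 7.27 (SD 1.35, or 0.74 without DD_06). MX1, a GTPase that blocks influenza viruses, ran from 12.01 in DD_01 to 15.07 in DD_06 (median 13.15, SD 0.91), and MX2 from 8.42 to 12.00 in the same pigs (SD 1.05). Without DD_06 the SD was 0.38 for MX1 and 0.49 for MX2. In each of these 4 genes DD_06 was the highest pig. IRF9, part of the factor that carries the interferon signal to the nucleus, had the smallest SD of the list, 0.20.

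The genes most like MX1 over the 10 pigs were LOC100522887, annotated as caspase-13-like, FCGR1A, the high-affinity receptor for immunoglobulin G, LOC733579, annotated as TRIM5, LGALS9, which encodes galectin-9, and ENTPD7, at r = 0.96 to 0.99. They were chosen over all 9073 genes, and without DD_06 the correlations were 0.84 to 0.95. RASSF5 (−0.95) and LIN28A (−0.93) ran opposite to MX1, at −0.815 and −0.62 without DD_06. FCGR1A alone spanned 5.68 in DD_01 to 9.50 in DD_06 (SD 1.15, or 0.47 without DD_06). CXCL10 was most like XAF1, PPA1, the granzyme gene GZMA, the exonuclease ISG20 and EIF4G1 (r = 0.96 to 0.97), and least like C6ORF108 and NLE1. Without DD_06 the correlations of CXCL10 were 0.89 to 0.94 with the former, and −0.83 and −0.86 with the latter. OASL was most like XAF1, the proteasome subunit PSMB2, PDCD1LG2, RTP4 and the death ligand TNFSF10 (r = 0.95 to 0.97), and least like SART1 and MAP4K3. Those of OASL were 0.79 to 0.88, and −0.67 and −0.57, without DD_06. GZMA, a serine protease of cytotoxic granules, had 8.02 in DD_06, 7.32 in DD_21, 7.12 in DD_11 and 7.11 in DD_16 and 5.23 to 6.16 in the others, so that the 4 highest pigs were those of CXCL10. CD274, the ligand of the inhibitory receptor PD-1, also peaked in DD_06 (8.92) and was lowest in DD_19 (5.55), with an SD of 1.27. The array of DD_06 was the brightest, and the list score followed brightness at r = 0.44.

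**Figure D3:**
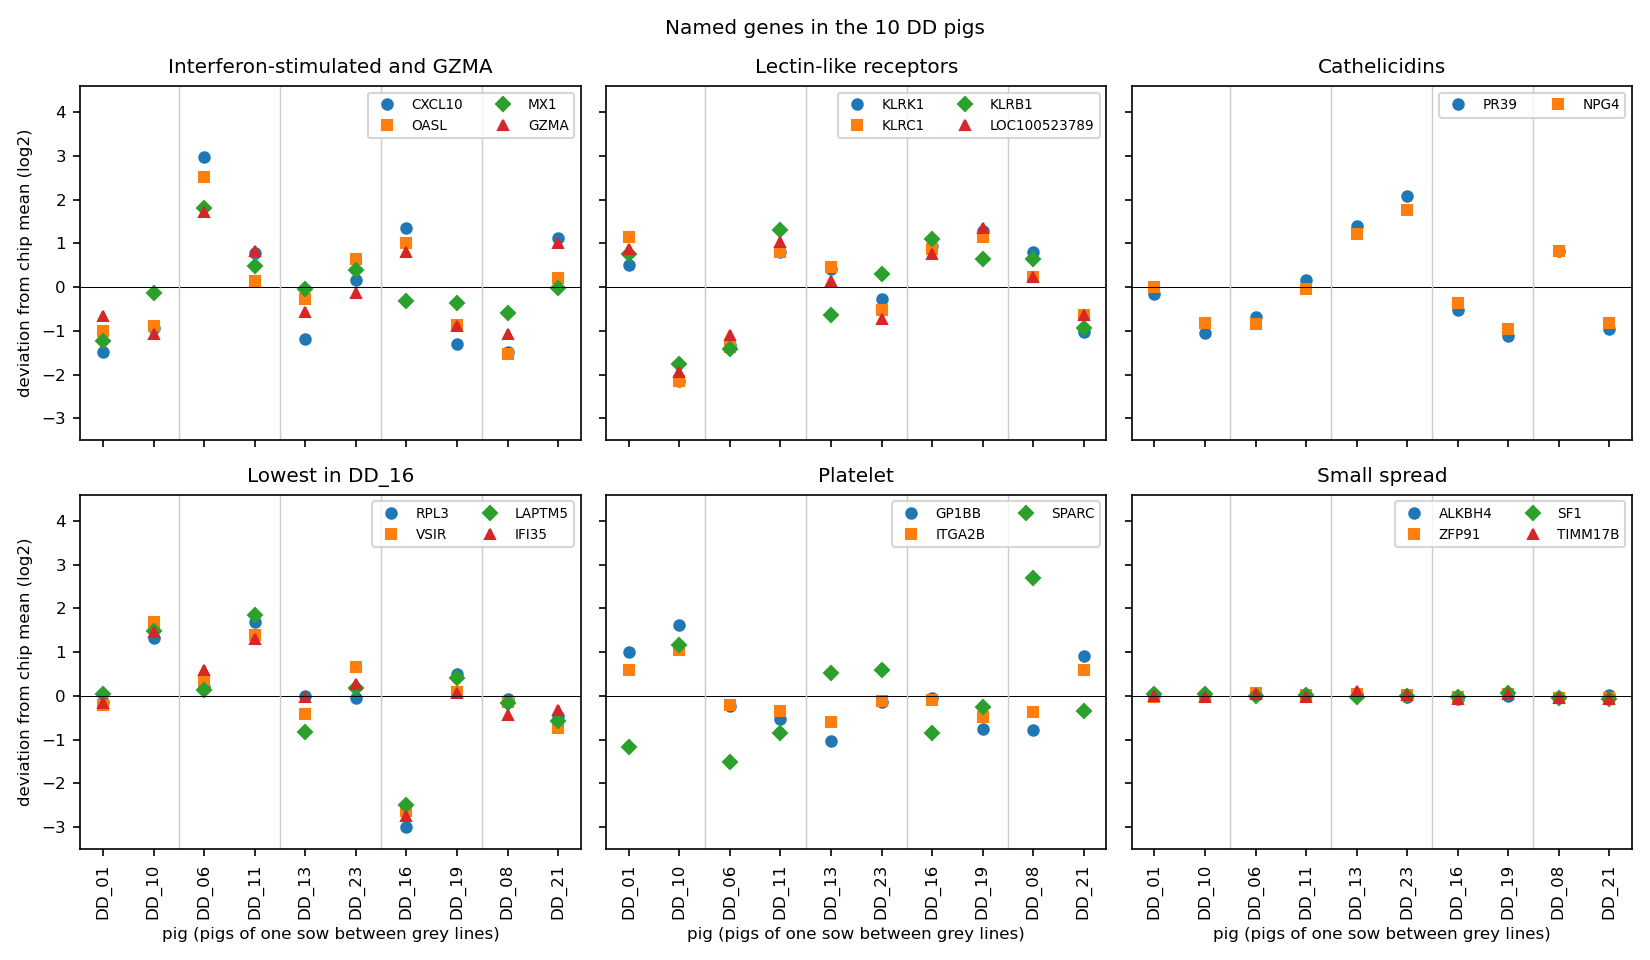
Deviation from the chip mean (log2, vertical axis) of named genes in each of the 10 DD pigs (horizontal axis), with pigs of the same sow side by side. Each point is 1 array; interferon-stimulated genes peak in DD_06, the lectin-like receptors are lowest in DD_10 and DD_06, PR39 and NPG4 are high in DD_23, DD_13 and DD_08, RPL3 and VSIR are lowest in DD_16, GP1BB and ITGA2B are highest in DD_10, and ALKBH4 and ZFP91 stay near 0.

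Receptors of natural killer cells varied as a block of their own. KLRK1, the activating receptor NKG2D, had 7.74 in DD_10, 8.57 in DD_06, 8.86 in DD_21 and 9.62 in DD_23, and 10.30 to 11.18 in the other 6 pigs (SD 1.30, or 1.33 without DD_16). KLRC1, which encodes NKG2A, an inhibitory receptor for class I molecules, had the same 4 lowest pigs, with 5.69, 6.45, 7.19 and 7.31, against 8.06 to 8.98 in the others (SD 1.28). KLRB1, the CD161 receptor, ran from 5.28 in DD_10 to 8.35 in DD_11 (SD 1.24). LOC100523789, which has no symbol, ran from 5.13 in DD_10 to 8.43 in DD_19 (SD 1.21), and LY49 from 3.13 in DD_10 to 6.44 in DD_01 (SD 1.23), although its probes were well above background on no more than 6 of the 10 arrays. In the Sscrofa11.1 annotation, KLRK1, KLRB1, LOC100523789 and LY49 lie on chromosome 5, and KLRC1 was not placed. LOC100523789 is the protein-coding gene next to KLRK1, with LY49 6 genes away on the same side and KLRB1 19 genes away on the other. The correlations of KLRK1 were 0.96 with KLRC1, 0.95 with LOC100523789, 0.90 with KLRB1 and 0.85 with LY49. These are related genes, and how far the probe of one binds RNA of another was not tested.

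The granule genes NKG7, GZMB and GNLY followed the receptors weakly or not at all. KLRK1 correlated at −0.10 with NKG7, a granule membrane protein, at −0.19 with GZMB, which encodes granzyme B, and at 0.05 with GNLY, the granulysin gene. NKG7 and GZMB correlated at 0.76 with each other. Without DD_16 the values of KLRK1 were 0.16, −0.12 and 0.22, and that of NKG7 and GZMB was 0.82. NKG7 then correlated at 0.18 (LY49) to 0.37 (KLRB1) with the other receptors. NKG7 itself ran from 9.41 in DD_16 to 12.79 in DD_11 (SD 0.98) and followed the difference along the transcript at r = 0.67. DD_11 and DD_16 share a chip, and before chip correction NKG7 was 12.48 in DD_06 and 12.41 in DD_11. GNLY had the smallest SD of the cytotoxic list, 0.14 around a mean of 16.94. The cytotoxic and natural killer list, 23 of 33 genes tested, had a median pairwise r of 0.20, or 0.02 without DD_11, and a median SD of 0.54. Of its genes, 8 (34.8%) lay above the trend and 1 below it at an unadjusted p of 0.05. The genes most like NKG7 were NFS1, TUBB, TOMM22, HEXIM2 and RHOF (r = 0.96 to 0.97), and those least like it NT5DC1 and MITD1. Those most like KLRK1 were DNAH6 (0.99), LMBR1 (0.97), KLRC1, LOC100523789 and the receptor gene ADGRG1 (0.95 to 0.96), and those least like it GLUL and FAM46A.

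**Figure D4:**
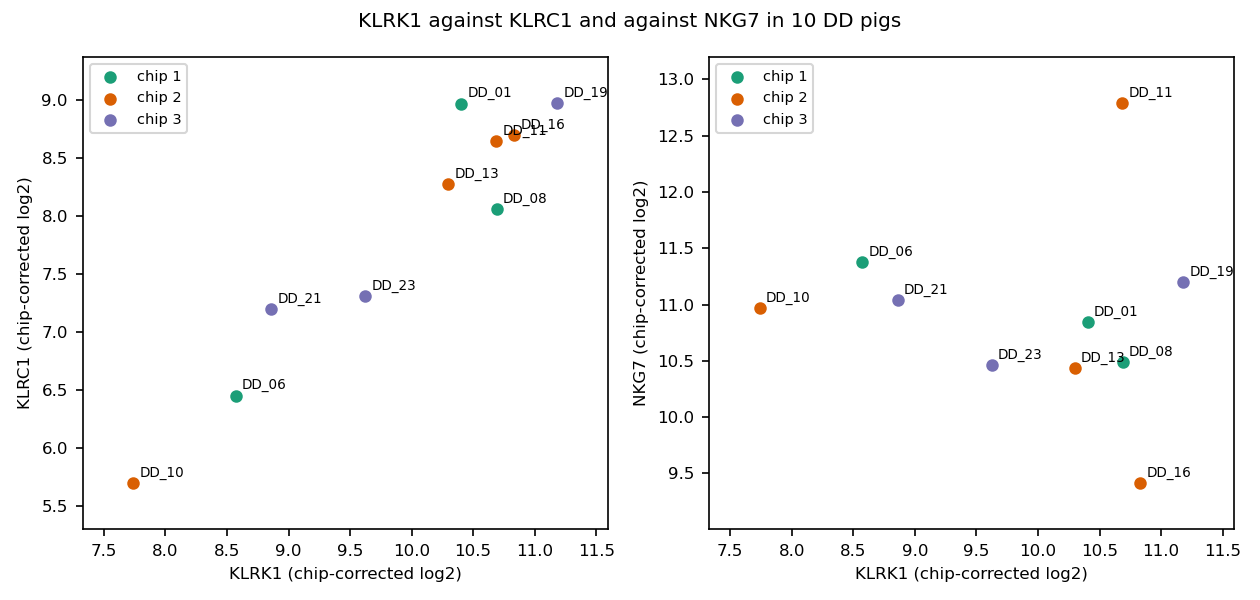
Chip-corrected log2 level of KLRK1 (horizontal axes) against KLRC1 (left) and NKG7 (right) in the 10 DD pigs, coloured by chip. KLRC1 rises with KLRK1 (r = 0.96), from DD_10 at the lower left to DD_19. NKG7 does not (r = −0.10, or 0.16 without DD_16), with DD_11 highest and DD_16 lowest.

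The cathelicidins PR39 and NPG4 were high in the same 3 pigs, DD_08, DD_13 and DD_23. PR39, a proline- and arginine-rich antimicrobial peptide stored in neutrophil granules, had 9.23 in DD_23, 8.56 in DD_13 and 7.99 in DD_08, and 6.04 to 7.32 in the others (SD 1.25). NPG4, which encodes the related protegrin 4, had 12.35, 11.82 and 11.42 in the same 3 pigs and 9.64 to 10.60 in the others (SD 1.09). DD_13 and DD_23 came from the same sow and were on different chips. Cathelicidin messages are made by neutrophil precursors rather than mature cells. Probes of PR39 and NPG4 correlated among themselves at 0.98 and above, and the 3 of NPG4 overlap in sequence.

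Among the granulocyte genes as a whole, DD_23 was again the highest pig, while DD_13 and DD_08 were not high (list scores of −0.16 and 0.02). Of 43 neutrophil and granulocyte genes, 28 were tested, with a median SD of 0.81, or 0.65 without DD_16. At an unadjusted p of 0.05, 16 (57.1%) lay above the trend and 0 below, and the median pairwise r was 0.40. The list score was −0.75 in DD_16 and 0.60 in DD_23. It followed that of the monocyte list (19 of 26 genes tested, median SD 0.58, or 0.44 without DD_16, 4 (21.1%) above the trend) at r = 0.97, and at 0.95 without DD_16. CXCR2, the interleukin-8 receptor of neutrophils, ran from 12.74 in DD_16 to 14.28 in DD_06, and went with KCNJ2, AQP3, MRPL58, CCR1 and TGM1 (r = 0.97 to 0.99), and against MTMR1 (−0.94). VNN1, a pantetheinase, had the smallest SD of the list (0.26). CSF1R, the receptor that sustains monocytes, went with PLAGL2, S100A9, a calcium-binding alarmin of neutrophils and monocytes, FES, CHI3L1 and ATP6V0C (r = 0.97 to 0.99, or 0.91 to 0.97 without DD_16), and against ATP5S and C20ORF177. CD14, the lipopolysaccharide co-receptor, had 7.58 in DD_16 against 9.10 to 10.67 and the largest SD among monocyte genes, 1.00, or 0.58 without DD_16. CD86, a costimulatory ligand, had the smallest, 0.29.

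T cell and SLA genes, as chip-centred scores, were lowest in DD_16 and highest in DD_11. Both pigs are on the same chip, where a low pig raises the others by the chip mean. T cell genes (19 of 33 tested) had a median SD of 0.55 and a median pairwise r of 0.58, with scores from −0.60 in DD_16 to 0.55 in DD_11, and 5 (26.3%) above the trend at an unadjusted p of 0.05. CD27, a costimulatory receptor, varied most (SD 1.20, or 0.75 without DD_16) and TRAT1, which stabilizes the T cell receptor, least (0.23). CD3E, a chain of that receptor, was most like SEP6, MIC-2, GGT7, R3HCC1 and RHBDD1 (r = 0.97 to 0.98, or 0.94 to 0.98 without DD_16) and least like PAICS and CMYA5. The SLA class I (16 of 22 genes tested) and class II lists (16 of 19) hold genes that present peptides to T cells. They also hold related genes such as ERAP1, CTSH and RFX5. Their median SDs were 0.41 and 0.50, and their median pairwise r 0.62 and 0.65. In each list 4 genes (25%) lay above the trend at an unadjusted p of 0.05, against 4.92% of all genes. Without DD_16 the class II median SD was 0.38. Their scores were −0.71 and −0.80 in DD_16 and 0.59 and 0.51 in DD_11. SLA-6 had the largest SD of the class I list (1.22, or 0.79 without DD_16), and the peptide-trimming ERAP1 the smallest (0.20). In the class II list CTSH, a lysosomal protease, varied most (1.07, or 0.58 without DD_16) and the transcription factor RFX5 least (0.20). The scores of T cell, class I and class II lists followed the difference along the transcript at r = 0.76 to 0.78.

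B cell genes were lowest in DD_21 and highest in DD_13, while plasma cell genes were lowest in DD_16. B cell genes (20 of 30 tested, median SD 0.42, 3 (15%) above the trend) had scores from −0.42 in DD_21 to 0.32 in DD_13. That score followed brightness at r = 0.75, and the array of DD_21 was the dimmest. Without DD_21 the median pairwise r was 0.14 in place of 0.31. CD79B, a signalling chain of the B cell receptor, was lowest in DD_16 (10.61) and DD_21 (10.80) and 11.29 to 11.87 elsewhere, and went with SGK223, FIG4, SLA-DQB1, ITGB5 and CCR6 (r = 0.95 to 0.98, or 0.91 to 0.97 without DD_16), and against GPR27 and OSM. IGLL1, a surrogate light chain gene, had the largest SD (1.14, or 0.51 without DD_16), and the kinase gene BLK the smallest (0.18). The 7 plasma cell and immunoglobulin genes tested of 20 had a median SD of 0.36 and 1 gene (14.3%) above the trend. Their score ran from −0.54 in DD_16 to 0.38 in DD_10, followed that of SLA class I at r = 0.98 and followed the difference along the transcript at r = 0.84. DD_10 shares the chip of DD_16, where a low pig raises the others by the chip mean. IGHA, the heavy chain of immunoglobulin A, ran from 10.17 in DD_16 to 13.02 in DD_10 (SD 0.89, or 0.55 without DD_16), and PRDM1, the plasma cell regulator Blimp-1, had the smallest SD, 0.27.

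Platelet genes were highest in the pigs DD_10 and DD_01, which shared a sow. Of 32 platelet genes, 20 were tested, with a median SD of 0.61, a median pairwise r of 0.51 and 7 (35%) above the trend at an unadjusted p of 0.05. The score was 0.62 in DD_10, 0.44 in DD_01 and 0.31 in DD_21, and −0.38 to 0.07 in the others. GP1BB, a subunit of the von Willebrand factor receptor, had 12.18 in DD_10, 11.58 in DD_01 and 11.47 in DD_21 and 9.53 to 10.52 in the others (SD 1.00). ITGA2B, a chain of the fibrinogen receptor, had the same 3 highest pigs and correlated with GP1BB at 0.99, followed by SEP5, GPR4, CIDEB and TWF1 (0.96 to 0.97). SMC6 (−0.99) and CPSF4 (−0.97) ran against it. SPARC, a matrix protein also held in platelet granules, did not follow them. It ran from 4.21 in DD_06 to 8.41 in DD_08 with an SD of 1.44, or 0.78 without DD_08, on 1 probe that was well above background on 5 arrays. GP9 had the smallest SD of the list (0.29). The arrays of these 3 pigs had a brightness of 7.24, 7.59 and 6.56, the lowest or next to lowest among the DD pigs of their chips, and the score followed brightness at r = −0.73.

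Erythroid genes were high in DD_08 and low in DD_06. Of 57 genes, 40 were tested, with a median SD of 0.61, 0.52 without DD_16, and 4 (10%) above the trend. The score was 0.52 in DD_08, where 38 of 40 genes lay above the chip mean, and −0.48 in DD_06, where 36 lay below. ALAS2, the first enzyme of haem synthesis in red cells, ran from 9.92 in DD_06 to 11.73 in DD_16 (SD 0.67). Among the genes most like it over the 10 pigs were LALBA, the milk protein alpha-lactalbumin, LDB3, IGFBPL1 and FAM84A (r = 0.99), none of which is a red cell gene, and SSH2 and SLA-1 ran opposite. ALAS2 followed brightness at r = −0.86 and LALBA at −0.86, and the erythroid score at −0.78. CPOX, another haem enzyme, had the smallest SD (0.21). The eosinophil, basophil and mast cell list had 5 of 23 genes tested, with 0 above the trend and a median SD of 0.47, or 0.29 without DD_06. Its scores followed those of the platelet list at r = 0.82, or 0.98 without DD_16. They followed brightness at r = −0.76, and the platelet scores did so at r = −0.73. HDC, the histamine-forming enzyme, varied most (0.74) and the immunoglobulin E receptor chain MS4A2 least (0.19).

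**Figure D5:**
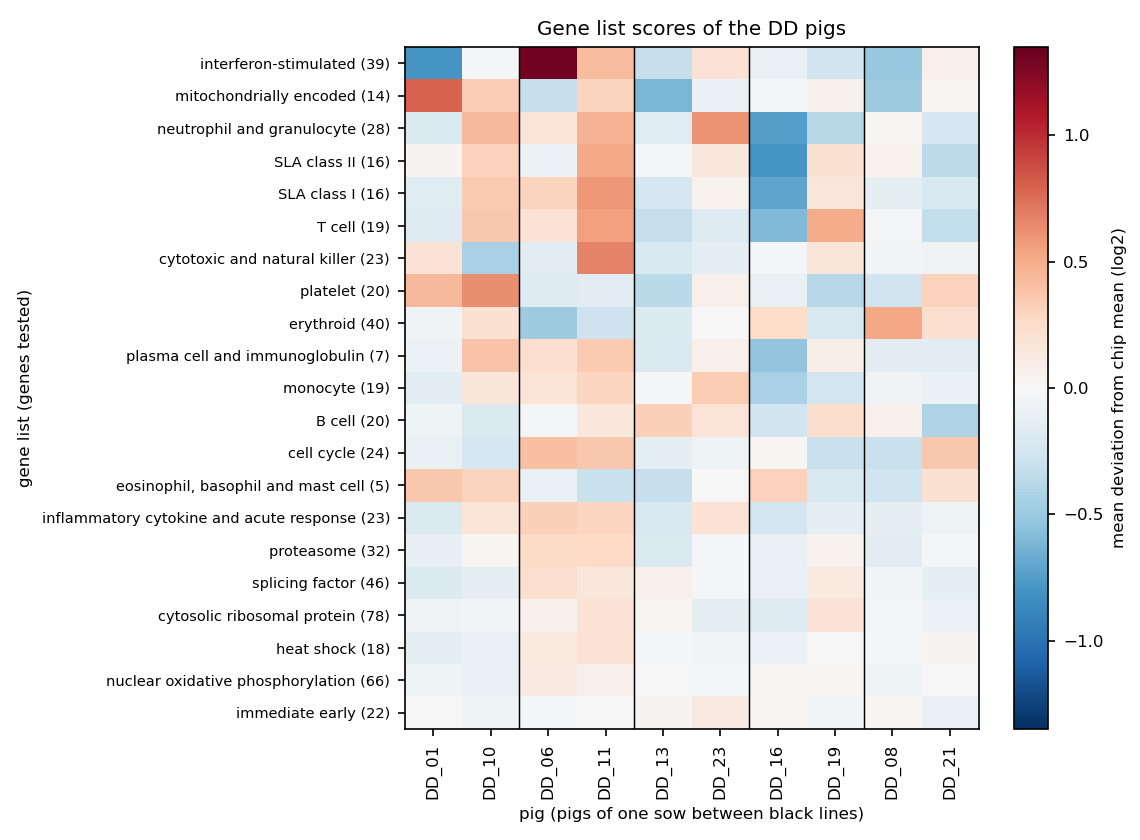
Mean deviation from the chip mean (log2, colour) of each gene list (rows, number of genes tested in brackets) in each of the 10 DD pigs (columns, pigs of the same sow side by side), ordered by range. The interferon-stimulated list spans the widest range, from −0.79 in DD_01 to 1.30 in DD_06, the mitochondrially encoded list is highest in DD_01, and the neutrophil, SLA class I, SLA class II and T cell lists are lowest in DD_16.

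Transcripts of the mitochondrial genome were high together in DD_01. All 14 mitochondrially encoded genes tested of 26 listed lay above the chip mean in DD_01 and below it in DD_06, DD_08 and DD_13. Their median pairwise r was 0.86, and 0.91 without DD_16, at a median SD of 0.52. Without DD_01 these were 0.70 and 0.36. The list score followed the difference along the transcript at r = 0.68, and COX3 and ND1 did so at 0.93 and 0.70. At an unadjusted p of 0.05, 1 gene (7.14%) lay above the trend, where 4.92% of all genes lay above it and 5.18% below. COX3, a core subunit of cytochrome oxidase, had the largest SD (0.74), or 0.30 by its brightest probe alone, and ND6, a complex I subunit encoded on the other strand, the smallest (0.28). COX1 went with COX2, ATP8, ND1 and ATP6, all mitochondrial, at r = 0.88 to 0.92, then with RHOC, and against VPREB1 and KIAA1468. Without DD_01 these 4 correlations were 0.78 to 0.85. Only 6.4% of all genes had an r above 0.5 with COX1, whereas all 13 other mitochondrial genes did. Of nuclear oxidative phosphorylation genes, 66 of 91 were tested. Their median SD was 0.27, their median pairwise r 0.16, and 8 (12.1%) lay below the trend against 2 (3.03%) above it, at an unadjusted p of 0.05. NDUFV1 varied most among them (0.90, or 0.48 without DD_16) and NDUFA7, a complex I subunit, least (0.07).

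Splicing factors (46 of 50 tested) had a median SD of 0.27, and 3 (6.52%) lay above and 1 (2.17%) below the trend. This count and those in the rest of the paragraph are at an unadjusted p of 0.05. Over all genes, 4.92% lay above and 5.18% below. PRPF19 varied most (1.04) and CDC5L, its partner in the spliceosome, least (0.10). Cytosolic ribosomal protein genes (78 of 88 tested) had a median SD of 0.30 with 6 (7.69%) above and 4 (5.13%) below the trend, and ran from RPL3 (1.42) to RPL7L1 (0.12). Proteasome genes (32 of 35 tested) had 0.34 with 1 (3.12%) on each side, from PSMC4 (0.78) to PSMD13 (0.14). Heat shock genes (18 of 24 tested) had 0.32 and immediate early genes (22 of 33 tested) 0.31, with 0 on either side of the trend. HSP90AB1 (0.63) and AHSA1 (0.18), RGS1 (0.78) and KLF2 (0.15) were their largest and smallest SDs. FOS, an immediate early transcription factor, ran from 5.97 in DD_10 to 7.97 in DD_13 (SD 0.77). It went with USP39, KLF9, TMEM199, MTX2 and FYTTD1, against the complement gene C3 (−0.98) and XRCC6, and followed the difference along the transcript at r = −0.89. The median pairwise r of the immediate early list was 0.02. Cell cycle genes (24 of 40 tested) had a median SD of 0.47, with 1 (4.17%) above the trend, and a median pairwise r of 0.50. They ran from MCM2 (0.88) to AURKB (0.24), with scores from −0.30 in DD_08 to 0.40 in DD_06. Inflammatory cytokine and acute response genes (23 of 30 tested) had a median SD of 0.43 and a median pairwise r of 0.04, with 4 (17.4%) above the trend, from TREM1 (1.50) to PER1 (0.21). Of the X-inactivation and Y-linked list, 1 gene of 14 was tested, and no value is given.

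No gene was called below the trend, and the 10 with the smallest SD relative to it are named by the same ranking. ALKBH4, a demethylase, had levels of 8.10 to 8.21 in all 10 pigs (SD 0.04), and ZFP91, a ubiquitin ligase, 9.78 to 9.88 (SD 0.04). The others were SLC2A1, the glucose transporter GLUT1 (0.06), the splicing factor SF1 (0.05), the GTPase RIT1 (0.06), the zinc transporter SLC30A6 (0.07), TMEM131 (0.07), TIMM17B, part of the mitochondrial import channel (0.06), the co-repressor RCOR1 (0.07) and AVP (0.06). For all 7 of these 10 genes with at least 2 probes, the median correlation between probes was below 0, so that their average was steadier than each probe. The brightest probe alone had an SD of 0.15 for ALKBH4 and 0.13 for ZFP91. TIMM17B, SLC2A1 and AVP rested on 1 probe, and AVP was among the brightest genes, where quantile normalization gives equal ranks the same value.

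Left to describe are genes that ranked high without DD_16 and belong to no group above. MLN, the gut hormone motilin, had 9.19 in DD_01 and 4.47 to 6.47 in the other 9, and its SD was 1.44, or 0.25 without DD_01. Its likeness to ABHD16A, GRK4, GYS1, RECK and MED4 (r = 0.93 to 0.96) changed without DD_01, to r from −0.01 to 0.81. CCAR2 (−0.97) and NCL (−0.96) ran opposite, at −0.91 and −0.20 without DD_01. DMD, which encodes dystrophin, SDR39U1 and the collagen gene COL5A2 were highest in DD_01 (11.67, 11.75 and 13.26) and lowest in DD_06 (8.01, 8.11 and 9.39). Without DD_01 their SDs of 1.12, 1.10 and 1.11 were 0.64, 0.71 and 0.58. MTURN, a regulator of megakaryocyte differentiation, was highest in DD_01 (9.66) and DD_10 (9.55), pigs of the same sow, and 6.79 to 8.42 in the others. BCL2L15 had 5.01 in DD_06 and 5.49 in DD_21 and 6.26 to 7.99 in the others (SD 1.22). IL18, a cytokine that induces interferon-gamma, ran from 5.91 in DD_21 to 9.18 in DD_23 (SD 1.17), and its 4 probes correlated at r = 0.97 or more.

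Pigs of the same sow were compared over all genes. Over the 9073 chip-centred values, the 5 pairs from 1 sow correlated at −0.24 to 0.32, with a median of 0.14, and the 28 other pairs on different chips at −0.34 to 0.37, with a median of −0.03. The ranges overlap, and the correlations are over genes, which are not independent replicates. The highest value among the 5 was that of DD_01 and DD_10, and the lowest that of DD_16 and DD_19.

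The spread within the DD line was set beside that within LW pigs. The root mean square deviation of a pig from the mean of its breed on its chip, over genes, was 0.41 ± 0.06 (SD, n = 5 sows) in DD and 0.34 ± 0.08 (SD, n = 6 sows) in LW pigs. The ranges of the pigs overlapped, with 0.30 to 0.61 in DD and 0.25 to 0.49 in LW pigs, and DD_16 the highest (two-sided exact permutation over sow means, p = 0.15; the design allows no p under 0.00216). Without DD_16 the difference of 0.07 came to 0.03 (two-sided exact permutation, p = 0.34). Array brightness ran from 6.56 to 8.49 in DD and from 7.37 to 8.62 in LW pigs. Its part in the difference in spread was not tested. For single genes, limma's test of the absolute deviations called 13 of 9073 genes (0.143%) at an adjusted p of 0.05, 11 with the larger spread in DD. Among them were GZMA, with a root mean square deviation of 1.15 in DD and 0.44 in LW pigs (limma, adjusted p = 0.04), and LAG3, an inhibitory receptor of activated T cells (1.02 and 0.23, adjusted p = 0.03), named after their values were seen. Deviations of pigs that share a breed and chip are not independent, so that these p-values are too small. Genes entered this test by their level and detection on the DD arrays alone. The part that weak signal in LW pigs has in these counts was not tested. The count ran from 0 without DD_13 to 175 without DD_08 when a pig was left out, and came to 0 without chip 1 or chip 3.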

How the data were processed

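RNA of whole blood was hybridised to one-colour (Cy3) Agilent pig arrays with 60305 probes besides controls. Scanner files deposited by the authors hold the intensity of each spot from Agilent Feature Extraction 10.7.3.1. The authors removed some arrays as outliers, corrected the background, quantile normalized and deposited a matrix of log2 values, which was the main input. Groups came from the breed labels, and chips and sows from the study's sample sheet. The authors updated the probe annotation against Sscrofa11.1. Names here came from the deposited files and RefSeq's table of that assembly, and no coordinates are printed. Of the probes, 28861 could be named, for 13160 genes.

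Here, probes in the lowest 25% of mean level, or well above background on fewer than 5 DD arrays, were left out, and kept probes of a gene were averaged. Chip was a fixed effect in limma 3.58.1 (R 4.3.3). The variance of each gene was set against limma's robust trended prior by an F test with Benjamini-Hochberg adjustment. Correlations are Pearson's, over chip-centred values of 10 pigs from 5 sows, with no p. Steps across genes were tested on simulated data, where the variance test called no gene given a raised SD when genes were as unequal as here. Replicates are separate animals with 1 array each, and pigs of 1 sow are related. The members and gene lists were chosen with earlier results of these data known. No gene was called above the trend, so the 20 genes with the largest SD over prior SD, with and without DD_16, were named, a rule added after values were seen. The 10 with the smallest ratio, the 15 brightest, the largest and smallest SD of each list, and for each anchor gene the 5 highest and 2 lowest correlations were named by rule, written with those earlier results known. Array alternatives, filters, covariates and left-out pigs are given in the closing section. Figures were drawn with matplotlib 3.10.9. Results of some genes that these rules name are not reported here.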

Additional observations from a re-analysis of the deposited data

Results flagged for a closer look

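In 5 of 83 sets of 10 values (6.02%), 1 pig lay far from its nearest neighbour. Its gap, as a share of the whole range, passed Dixon's 95% critical value. The sets were chip-corrected levels of named genes, list scores, scores on the first and second component, the root mean square deviation and array brightness. Chance flags about 1 in 20 sets. RPL3 (8.57), IFI35 (5.27) and RFC2 (5.77) were low in DD_16, the array with 631 low probes. MLN, the motilin gene, was high in DD_01 (9.19). AHSP, the chaperone of alpha globin, was low in DD_19 (16.10).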

How the results depend on the processing

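No gene was called above the trend under any of the 23 alternatives, which says nothing about stability, since on simulated data as unequal as these the test called no such gene. Genes below it numbered 1 with normexp at offset 0 or with 75th percentile scaling, 2 with normexp at offset 50 or with array brightness as a covariate, 0 to 1 when a pig was left out, and 0 otherwise. The median SD of 0.33 became 0.31 with probes well above background on all 10 DD arrays, 0.35 without a filter, 0.34 by the brightest probe, 0.32 with normexp at offset 0, 0.38 with 75th percentile scaling, 0.22 with normexp at offset 50, 0.41 without chip correction, 0.29 with brightness as a covariate, 0.39 with sow as a block in place of chip, and 0.29 with the difference along the transcript as a covariate. It was 0.31 (0.305) to 0.34 (0.341) when a pig was left out. The first component's 39.9% became 33.7% with only the lowest quartile of probes removed, 29.95% without a filter, 52.1% without chip correction, 35.7% with chip effects from all 21 arrays, 51.2% with brightness, 61.8% with the sow block, 43.8% with the difference along the transcript, and 36.3% to 46.9% when a pig was left out. The difference in spread between DD and LW pigs was 0.0789 with only the lowest quartile removed (two-sided exact permutation, p = 0.0281), 0.00988 without chip 2 (p = 0.825) and 0.0349 without DD_16 (p = 0.338). Genes of unequal spread numbered 8 under that filter, 3 with 75th percentile scaling, 2 without the breed-by-chip interaction, 0, 1 and 0 without chips 1, 2 and 3, and 0 to 175 when a pig was left out. A variance ratio F test called 10, and 1200 passed the main test at an unadjusted p of 0.05. The cause was not tested for any of these. The covariate along the transcript and the variance ratio were chosen after seeing the data. Dim probes, on arrays of unequal brightness, limit what can be seen of low genes. No paired analysis was possible because the individual numbers of DD and LW pigs are not shared between the breeds.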
